A study of Mus musculus with 12 samples.

Results

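The heat shock chaperones of the cytosol and mitochondria described here are 10 genes, Hspa1a, Hspa1b, Hspa8, Hsph1, Dnajb1, Hspb1, Hsp90aa1, Hspd1, Hspe1 and Bag3, taken by symbol from a count table of 48709 genes. All 10 had enough counts to be tested, as did 17294 genes of the table. They were measured by RNA sequencing in 12 libraries of mouse pancreatic islets, 3 in each of 4 groups. All mice were female, on the immunodeficient NSG background, and heterozygous for RIP-DTR, a transgene in which the insulin promoter drives the diphtheria toxin receptor, so that the toxin acts on beta cells. The CTRL group was untreated, and the other groups received diphtheria toxin (DT) and carry the labels 1 DPA, 3 DPA and 5 DPA (DPA taken to mean days post-ablation). The toxin was thus absent from CTRL, while the transgene was shared by all groups; the labels used here give no age. They do not state that the 3 replicates of a group are different mice, so a p-value here reflects the scatter among these libraries alone, which may be technical.

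Heat shock chaperones bind proteins that are unfolded or newly made and help them to fold, to avoid clumping or to be degraded. HSP70 proteins (HSPA) do this with energy from ATP, driven by J-domain partners (DNAJ) and reset by exchange factors such as HSPH1 and BAG3. When unfolded proteins build up, heat shock factor 1 (HSF1) trimers bind heat shock elements, which are inverted repeats of the bases GAA, and raise transcription of these genes. Beta cells make and secrete large amounts of insulin and depend on chaperones, although insulin itself folds in the endoplasmic reticulum, whose own chaperones are not among these genes.

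Total counts were between 29867083 and 50012558 per library. The 10 beta cell marker genes were detected in every library and summed to between 183834 and 204548 CPM, which are counts put on one library size, in CTRL and between 106774 and 163598 at 1 DPA. Slc2a2, the beta cell glucose transporter, fell at 1 DPA (log2 fold change -1.03 ± 0.12 SE, edgeR adjusted p = 1.98e-05), as did the insulin gene Ins1 (-0.81 ± 0.18, adjusted p = 0.00264), while Ins2 did not pass the test (-0.37, adjusted p = 0.0801). In bulk tissue, fewer cells of a type and less RNA per cell cannot be told apart. Libraries also differed in other cells: the 10 macrophage markers summed to 142 to 590.3 CPM in CTRL, 104 to 127 at 1 DPA, 228 to 393 at 3 DPA and 646 to 895 at 5 DPA, and the 9 stromal markers to 772 to 2258, 802 to 941, 1555 to 2268 and 3237 to 5248. The 11 acinar markers ranged from 4481 to 65287 CPM over all libraries, and no marker gene was at 0 in any library. The 8 early genes that also mark tissue handling, such as Fos and Egr1, summed to 379 to 922 CPM in CTRL, 2348 to 2966 at 1 DPA, 7661 to 14509 at 3 DPA and 3294 to 4429 at 5 DPA. The part of these in the results below was not tested. Some fits with a marker score are named below. The macrophage sums overlapped only between CTRL and 3 DPA, so a fit with a macrophage score can hardly tell the score from the group.

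Hspa1a and Hspa1b, the stress-inducible HSP70 genes, lie on chromosome 17 (mm10, GENCODE M21 annotation), each as 1 exon on the minus strand: Hspa1a at chr17:34969190-34972156 and Hspa1b at chr17:34956436-34959238, with 9951 bases between them. Their coding sequences are 99.5% identical, and 54.2% of all 75-base windows of the Hspa1a transcript also occur in another annotated transcript, mostly Hspa1b, as do 55.8% of those of Hspa1b. How the authors assigned such reads is not given in the sources used here, so the split between both genes is uncertain and their sum is given as well. Promoters of 8 of the 10 members were found in the RefSeq table (GRCm38.p6), which covers the 250 bases before and the 50 bases after each start; Hspa8 and Hsp90aa1 were not matched. These promoters were searched for sequences like the heat shock elements that HSF1 binds, and stretches from them are shown. Capitals mark a match to a minimal heat shock element of 2 inverted units, GAANNTTC or TTCNNGAA, each of which reads the same on both strands, and overlapping matches are run together. The stretches are the 150 bases before the start of Hspa1a (chr17:34972157-34972306, minus strand), Hspa1b (chr17:34959239-34959388, minus), Hspd1 (chr1:55087933-55088082, minus), Hspe1 (chr1:55087998-55088147, plus), Hspb1 (chr5:135887769-135887918, plus), Hsph1 (chr5:149636337-149636486, minus) and Dnajb1 (chr8:83608025-83608174, plus).
Hspa1a: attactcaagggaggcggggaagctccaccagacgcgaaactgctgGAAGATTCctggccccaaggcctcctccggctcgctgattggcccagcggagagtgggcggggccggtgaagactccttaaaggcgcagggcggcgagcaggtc
Hspa1b: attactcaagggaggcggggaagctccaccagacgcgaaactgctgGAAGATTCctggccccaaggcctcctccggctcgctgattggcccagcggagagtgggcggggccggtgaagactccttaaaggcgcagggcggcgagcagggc
Hspd1: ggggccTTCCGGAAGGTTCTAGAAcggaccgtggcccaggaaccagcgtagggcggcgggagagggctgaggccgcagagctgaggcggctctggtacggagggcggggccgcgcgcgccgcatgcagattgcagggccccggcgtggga
Hspe1: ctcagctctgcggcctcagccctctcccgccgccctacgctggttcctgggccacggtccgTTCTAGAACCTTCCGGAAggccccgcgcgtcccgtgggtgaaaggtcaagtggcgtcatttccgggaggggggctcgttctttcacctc
Hspb1: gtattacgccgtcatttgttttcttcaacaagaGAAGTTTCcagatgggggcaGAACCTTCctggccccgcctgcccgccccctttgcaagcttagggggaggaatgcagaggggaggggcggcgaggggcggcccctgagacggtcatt
Hsph1: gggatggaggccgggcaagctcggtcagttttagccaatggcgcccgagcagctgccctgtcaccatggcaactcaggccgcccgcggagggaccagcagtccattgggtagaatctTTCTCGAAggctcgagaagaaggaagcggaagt
Dnajb1: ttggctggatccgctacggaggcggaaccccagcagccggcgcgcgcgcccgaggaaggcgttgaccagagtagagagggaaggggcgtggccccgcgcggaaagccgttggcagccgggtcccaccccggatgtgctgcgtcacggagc

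The Hspa1a and Hspa1b stretches differed by 1 base and held the same single match, GAAGATTC, between 104 and 97 bases before the start. A head-to-head pair, Hspd1 and Hspe1, encodes the mitochondrial chaperonin HSP60 and its lid HSP10, and their gene models overlap by 112 bases (Hspd1 at chr1:55077835-55088243, minus; Hspe1 at chr1:55088132-55091307, plus). Of the 2 annotated Hspd1 starts, 1 had no match in its window. The same run of bases, within the Hspd1 gene model, appeared in the Hspd1 and Hspe1 stretches, once on each strand. The run lay between 144 and 127 bases before the other Hspd1 start and between 89 and 72 bases before the Hspe1 start. It held the full 3-unit element, GAANNTTCNNGAA or TTCNNGAANNTTC, which contains the 2-unit one. Hsph1 held the 3-unit element after its start, as TTCTGGAAAGTTC at bases 36 to 48, and Bag3 a 2-unit match after its start. Dnajb1 had no match in either of its windows, which says only that these letters are not in them. In all, 7 of the 8 members had a 2-unit match, against 15.1% of 32851 promoters in the table and 17.0% of 27025 genes, and 3 of 8 had a 3-unit match, against 0.603% of promoters and 0.662% of genes. Members were counted as genes, so the run shared by Hspd1 and Hspe1 and the match of the near-copies Hspa1a and Hspa1b each entered 2 times. A match is a description of the sequence and not a site shown to be bound.

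Levels of different genes were compared on the TPM values deposited by the authors, which account for transcript length. Averaged over the 12 libraries, Hspa8, the HSP70 made by unstressed cells, was highest at 254 TPM (173 to 345), followed by Hsp90aa1, an HSP90 gene, at 186 TPM (132 to 237). Hspa1b at 121 TPM (84.0 to 206), Hspd1 at 109 (92.2 to 129) and Hspa1a at 83.7 (55.3 to 144) came next. Hspb1, a small heat shock protein gene, and Hspe1 averaged 51.7 and 51.5 TPM, Dnajb1 34.7, Bag3 30.8 and Hsph1 24.9. The ranges of neighbours in this order overlapped throughout.

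Hspa1a and Hspa1b were higher at 5 DPA than in CTRL, at 1 DPA and at 3 DPA. Their mean level was highest at 5 DPA, as were those of Hspb1 and Bag3. Hspa1a was at 73.9, 89.4 and 82.3 CPM in CTRL replicates 1 to 3, at 93.6, 76.9 and 98.2 at 1 DPA, at 78.3, 79.8 and 108 at 3 DPA, and at 131, 176 and 182 at 5 DPA. All 5 DPA libraries lay above all others, and the other 3 groups overlapped. Hspa1b followed the same course, at 108, 124 and 108 CPM in CTRL, 122, 108 and 135 at 1 DPA, 109, 104 and 150.4 at 3 DPA, and 184, 238 and 246 at 5 DPA. Against CTRL at 5 DPA, Hspa1a rose 1.99-fold (log2 fold change 0.99 ± 0.16 SE, edgeR quasi-likelihood test, adjusted p = 0.00518) and Hspa1b about as much (0.97 ± 0.15, adjusted p = 0.00508). Counted as 1 gene, the pair rose by 0.98 ± 0.15 on the log2 scale (adjusted p = 0.00494). Fits without CTRL replicate 2 and without CTRL replicate 3 called both genes higher, Hspa1a at 1.05 and 1.00 on the log2 scale. Macrophage and stromal markers were also highest at 5 DPA, and in the fit with a macrophage score the pair was not called (Hspa1a 0.93, adjusted p = 0.0972; Hspa1b 0.82, adjusted p = 0.104). That fit called 168 genes in all in this comparison in place of 1477.

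The pair were 2 of the 10 members called at 5 DPA against CTRL, both higher, where 8.54% of all tested genes were called and 5.87% were called higher. The other 8 members had log2 fold changes between -0.08 for Hsp90aa1 and 0.49 for Dnajb1. Without CTRL replicate 2, Dnajb1 was called higher as well (1.07, adjusted p = 0.0277), and Hsp90aa1 was at 0.30 (adjusted p = 0.0917). Without 5 DPA replicate 1 the pair were still called, among 462 genes in place of 1477. That count was 823 without 5 DPA replicate 3, and 726 and 745 without CTRL replicates 2 and 3. Against CTRL, neither gene passed at 1 DPA (Hspa1a 0.13, adjusted p = 0.507; Hspa1b 0.10, adjusted p = 0.602) or at 3 DPA (0.12 and 0.09). From 3 to 5 DPA both rose, Hspa1b by 0.88 ± 0.15 (adjusted p = 0.0197) and Hspa1a by 0.88 ± 0.16 (adjusted p = 0.0217). They were the 2 members called between these times, where 3.16% of all genes were called and 0.705% were called higher. That share rested on single libraries: 547 genes were called in all, but 31, 33 and 70 without 5 DPA replicates 2, 1 and 3, 48, 288 and 186 without 3 DPA replicates 1, 2 and 3, 347 without 1 DPA replicate 2, and 314 and 1018 without CTRL replicates 2 and 3. Both of these calls were lost without 3 DPA replicate 1, 5 DPA replicate 2 or 5 DPA replicate 3, at log2 fold changes between 0.79 and 0.84, and that of Hspa1a also without 3 DPA replicate 2 (0.81). From 1 to 5 DPA, Hspa1b rose by 0.87 ± 0.15 (adjusted p = 0.000665) and Hspa1a by 0.86 ± 0.16 (adjusted p = 0.000869).

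**Figure D1:**
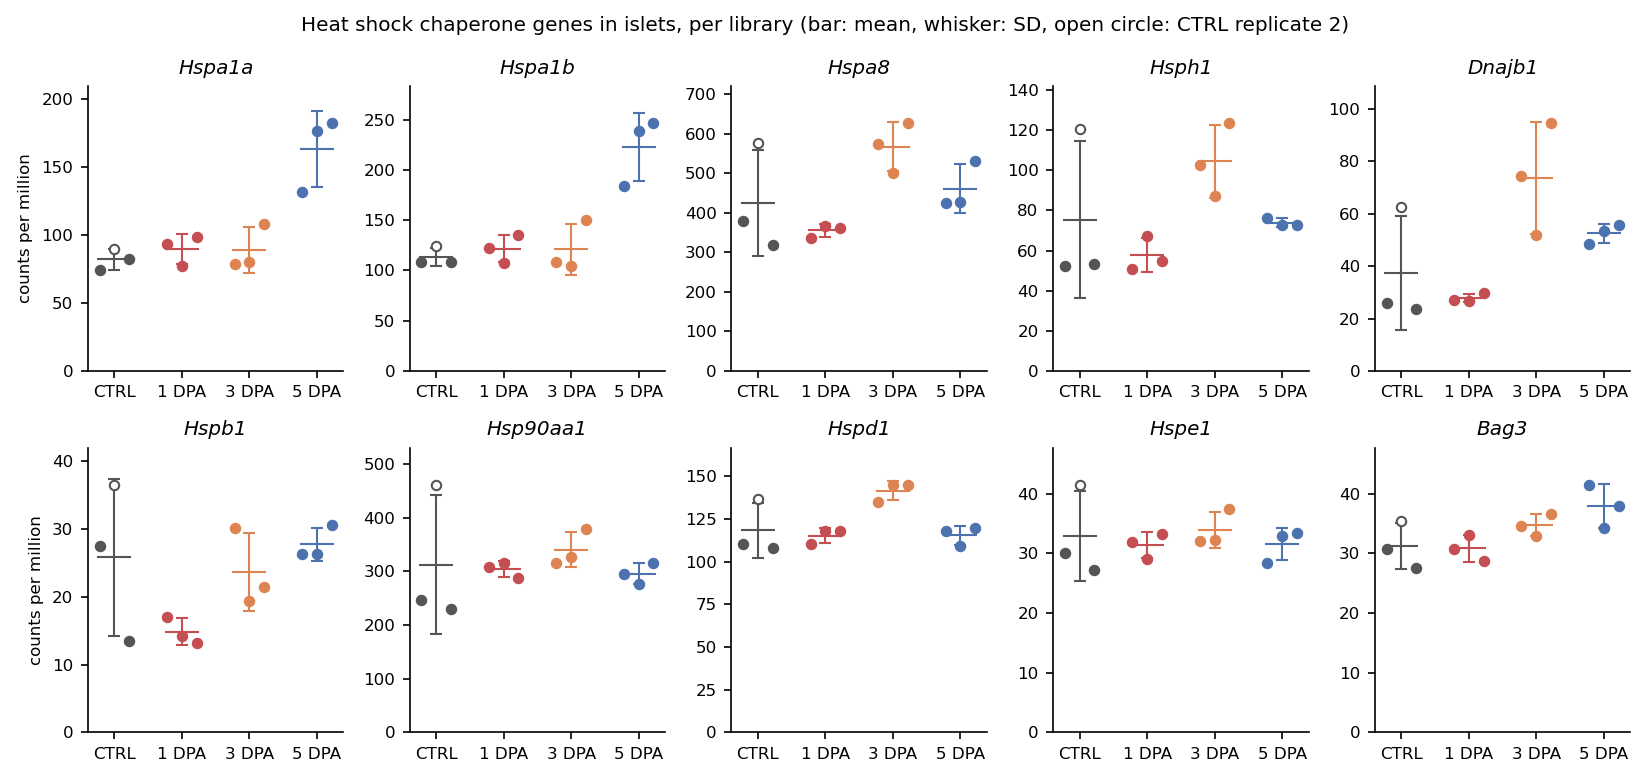
CPM (y axis, from 0) of the 10 chaperone genes in each library (points, replicates 1 to 3 from left to right) of the 4 groups (x axis), with the group mean (bar) and SD (whisker, n = 3). Hspa1a and Hspa1b were above all other libraries in the 3 libraries at 5 DPA, while Hspa8, Hsph1 and Dnajb1 were high at 3 DPA and in CTRL replicate 2 (open circle).

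The ratio of Hspa1a to Hspa1b stayed between 0.645 and 0.725 on the TPM scale over the 12 libraries. Hspa8 was above the sum of both in every library of CTRL, 1 DPA and 3 DPA (ratios 1.07 to 2.12) and below it in the 3 libraries at 5 DPA (0.711 to 0.931). The order of groups depended on the scale at 1 DPA: the summed TPM was 168, 161 and 234 there and 141, 150.1 and 149.9 in CTRL, so that the groups did not overlap, whereas their CPM overlapped. At 5 DPA the summed TPM was 274, 323 and 350.3, above all other libraries on this scale too.

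Hspa8, Hsph1 and Dnajb1 formed a group by function, the constitutive HSP70, the HSP110 that helps it to exchange nucleotide, and the J-domain protein that drives it. Hspa8 (chr9:40800984-40810087, plus) was at 379, 577 and 319 CPM in CTRL, 337, 367 and 362 at 1 DPA, 573, 502 and 627 at 3 DPA, and 425, 427 and 532 at 5 DPA. The 3 DPA libraries were all above those of 1 DPA, and CTRL spanned both. Of the 75-base windows of its transcript, 68.0% also occur in other annotated transcripts, so its count carries some uncertainty. The gene sharing most of them, Gm15459, had 0 counts over the 12 libraries, beside 228921 for Hspa8. Hsph1 (chr5:149614287-149636376, minus) was at 52.4, 121 and 53.5 CPM in CTRL, 51.0, 67.5 and 55.0 at 1 DPA, 103, 87.0 and 124 at 3 DPA, and 76.5, 72.8 and 72.6 at 5 DPA. Dnajb1 (chr8:83608193-83612653, plus) was at 25.9, 62.6 and 23.7 CPM in CTRL, 27.1, 26.9 and 29.7 at 1 DPA, 74.3, 51.8 and 94.6 at 3 DPA, and 48.6, 53.4 and 55.6 at 5 DPA. In CTRL, replicate 2 lay near the 3 DPA libraries for these 3 genes, and the other controls lay near those at 1 DPA.

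From 1 to 3 DPA, 4 of the 10 members rose and none fell, where 45.1% of all tested genes were called and 20.4% were called higher. Dnajb1 rose 2.64-fold (log2 fold change 1.40 ± 0.35, adjusted p = 0.0103), Hspa8 1.60-fold (0.68 ± 0.19, adjusted p = 0.0133) and Hsph1 1.81-fold (0.85 ± 0.30, adjusted p = 0.0399). The fourth was Hspd1, by 0.30 ± 0.08 (adjusted p = 0.0140). For all 4 genes every 3 DPA library lay above every 1 DPA library, as was also so for Hspb1 and Hsp90aa1, which were not called. The share of all tested genes set apart in this way was not counted, so no weight is put on it. The call of Hsph1 was lost in 10 of 22 other settings, among them those without any of the 1 DPA or 5 DPA replicates or without 3 DPA replicate 1 or 3. That of Hspa8 was lost without 3 DPA replicate 3 (0.60) and that of Hspd1 without 1 DPA replicate 1 (0.26). All 4 were lost in the fit with a macrophage score, in which Dnajb1 differed by 0.67 and Hsph1 by 0.42. Of the 8 early genes that also mark handling, 4 were called higher at 3 DPA than at 1 DPA and none lower. Fos was not called (0.57, edgeR adjusted p = 0.200). Each 3 DPA sum of these early genes was above each 1 DPA sum.

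Against CTRL at 3 DPA, none of the 10 members was called by edgeR or by limma-voom, while 3 had an unadjusted p under 0.05 and DESeq2 called Hspd1; 12.6% of all tested genes were called and 10.2% were called higher. Dnajb1 had a log2 fold change of 0.98 ± 0.35 (adjusted p = 0.111), Hsph1 of 0.47 ± 0.29 (adjusted p = 0.380) and Hspa8 of 0.42 ± 0.19 (adjusted p = 0.194). These values depended on CTRL replicate 2. In it, Dnajb1 was 2.53 times the mean of the other controls, Hsph1 2.28 times, Hsp90aa1 1.94 times, Hspb1 1.78 times and Hspa8 1.66 times, while Hspa1a and Hspa1b were 1.14 times that mean. The same library had the highest acinar sum of all libraries, 65287.4 CPM, beside 39020.5 and 10467.5 in CTRL replicates 1 and 3. Whether this bears on its chaperone values was not tested. The early genes of CTRL replicate 2 summed to 379 CPM, beside 922 and 492 in CTRL replicates 1 and 3. Fos was 0.399 times and Egr1 0.463 times the mean of the other controls. Nr4a1 (29.0 CPM) and Atf3 (2.14 CPM) were above CTRL replicate 3 (15.9 and 0.998 CPM). Without CTRL replicate 2, 5 members were called higher at 3 DPA, Dnajb1 (1.54, adjusted p = 0.00193), Hsph1 (0.95), Hspa8 (0.67), Hsp90aa1 (0.48) and Hspd1 (0.34). In that fit 10.9% of all tested genes were called, and 1429 of 17564 were called higher. Leaving out CTRL replicate 3, which had the lowest macrophage and stromal sums of the controls, gave no member called at 3 DPA.

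**Figure D2:**
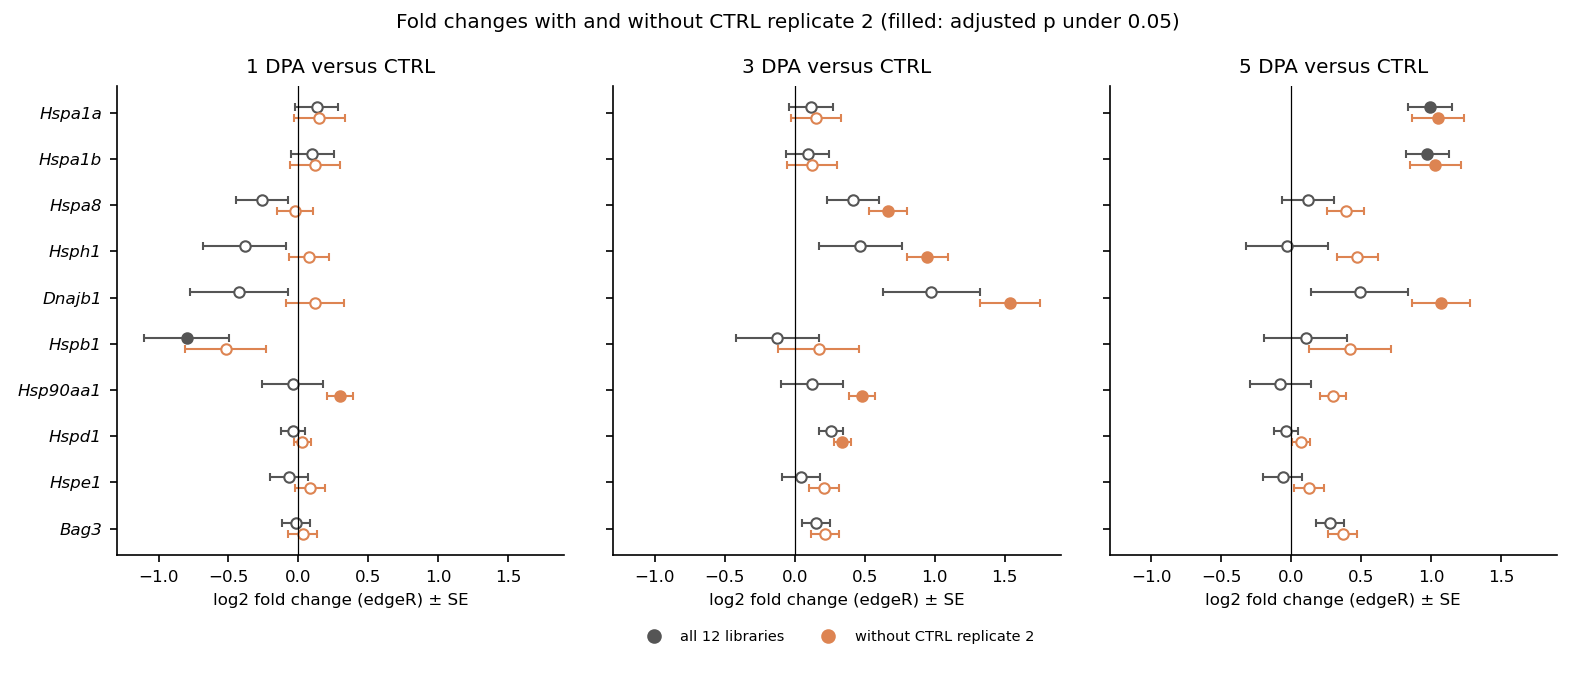
Log2 fold change ± SE (x axis) of the 10 genes (y axis) at 1, 3 and 5 DPA against CTRL, with all 12 libraries (grey) and without CTRL replicate 2 (orange); filled points passed an edgeR adjusted p of 0.05. At 3 DPA, Dnajb1 moved from 0.98 to 1.54 and Hsph1 from 0.47 to 0.95, while Hspa1a and Hspa1b at 5 DPA were called in both fits.

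At 1 DPA against CTRL, 1 of the 10 members was called, Hspb1, which was lower, where 51.6% of all tested genes were called, 29.2% higher and 22.4% lower. Hspb1 (chr5:135887919-135889563, plus), a small heat shock protein that holds unfolded proteins and is also made by muscle and stromal cells, was at 27.4, 36.5 and 13.6 CPM in CTRL and 17.0, 14.3 and 13.2 at 1 DPA. It was at 30.2, 19.4 and 21.4 CPM at 3 DPA and 26.3, 26.3 and 30.6 at 5 DPA. CTRL replicate 3 fell within the range of the 1 DPA libraries. The log2 fold change was -0.80 ± 0.30 (adjusted p = 0.0492), and the call was lost in 16 of 22 other settings. Its size varied with the controls used: it was -1.11 without CTRL replicate 3 and -0.52 without CTRL replicate 2, where it did not pass. Stromal and macrophage markers were also low in CTRL replicate 3 and at 1 DPA, and with the macrophage score the difference was 0.14. The other 9 members had log2 fold changes between -0.42 (Dnajb1) and 0.13 (Hspa1a), and the median of the 10 was -0.05, as was that of all tested genes.

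**Figure D3:**
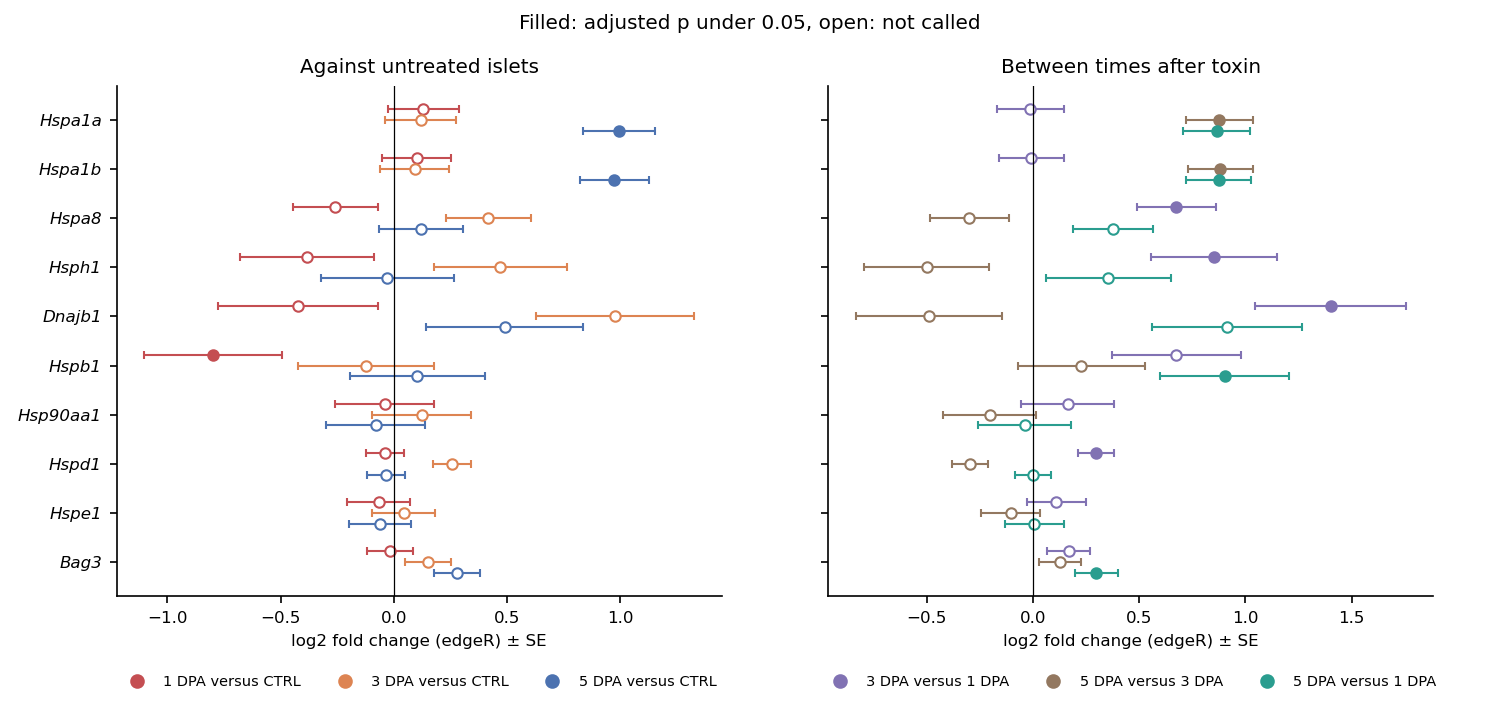
Log2 fold change ± SE (x axis) of the 10 chaperone genes (y axis), at left at 1, 3 and 5 DPA against CTRL and at right between times after toxin; filled points passed an edgeR adjusted p of 0.05. Hspa1a and Hspa1b were called in all 3 comparisons with 5 DPA, and Hspa8, Hsph1, Dnajb1 and Hspd1 from 1 to 3 DPA.

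Hsp90aa1 (chr12:110690605-110702728, minus), the stress-inducible cytosolic HSP90, was at 247, 462 and 229.8 CPM in CTRL, 309, 316 and 287 at 1 DPA, 316, 328 and 378 at 3 DPA, and 296, 277 and 315 at 5 DPA. All 9 libraries after toxin lay between CTRL replicate 2 and the other controls. It was called in none of the 7 tests, with log2 fold changes against CTRL of -0.04 ± 0.22, 0.12 ± 0.22 and -0.08 ± 0.22 at 1, 3 and 5 DPA. Without CTRL replicate 2 it was called higher at 1 DPA (0.30, adjusted p = 0.0216) as well as at 3 DPA. Its partner gene Hsp90ab1, the constitutive HSP90, fell at 1 DPA (-0.56 ± 0.15, adjusted p = 0.00790).

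Hspd1 was at 110.4, 137 and 108 CPM in CTRL, 110.1, 118 and 118 at 1 DPA, 135, 145 and 145 at 3 DPA, and 118, 109 and 119 at 5 DPA. The 3 DPA libraries were above those at 1 and 5 DPA, with CTRL replicate 2 among them. Hspe1 was at 30.0, 41.5 and 27.2 CPM in CTRL, 31.9, 29.0 and 33.3 at 1 DPA, 32.1, 32.3 and 37.4 at 3 DPA, and 28.4, 32.8 and 33.4 at 5 DPA. The groups of Hspe1 overlapped in every comparison, and it was called in none of the 7 tests. Both genes share the stretch of bases with the 3-unit element shown above. Whether that element acts on either gene was not tested. Between them, Hspd1 stood at 1.84 to 2.50 times the TPM of Hspe1. Against CTRL at 3 DPA, Hspd1 differed by 0.26 ± 0.08 (adjusted p = 0.0705) and Hspe1 by 0.04 ± 0.14 (adjusted p = 0.892); the difference between both genes was not tested.

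Bag3 (chr7:128523616-128546981, plus), an HSP70 exchange factor that works with small heat shock proteins in selective autophagy, was at 30.7, 35.4 and 27.6 CPM in CTRL and 30.7, 33.1 and 28.6 at 1 DPA. It was at 34.6, 32.9 and 36.5 CPM at 3 DPA and 41.5, 34.2 and 38.0 at 5 DPA. All 5 DPA libraries lay above those at 1 DPA, and CTRL replicate 2 lay within the range of those at 5 DPA. From 1 to 5 DPA, 4 of 10 members rose and none fell, where 56.1% of all tested genes were called and 26.3% were called higher. Bag3 rose by 0.30 ± 0.10 (adjusted p = 0.0251) and Hspb1 by 0.90 ± 0.30 (adjusted p = 0.0279), beside Hspa1a and Hspa1b. Dnajb1 did not pass (0.91 ± 0.35, adjusted p = 0.0503). The call of Bag3 was lost without 1 DPA replicate 1 or 3 or 5 DPA replicate 1 or 3, and that of Hspb1 without 1 DPA replicate 2 or 3 or any 5 DPA replicate and by limma-voom. With the macrophage score Bag3 differed by 0.00465 ± 0.21 and Hspb1 by -0.68 ± 0.45, and neither was called.

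Over the 4 groups together, 5 of the 10 members differed (edgeR F-test), where 57.4% of all tested genes did. These were Hspa1b (adjusted p = 0.000509), Hspa1a (0.000609), Hspd1 (0.0226), Dnajb1 (0.0281) and Hspa8 (0.0476). Bag3 (0.0628), Hspb1 (0.0981), Hsph1 (0.131), Hsp90aa1 (0.827) and Hspe1 (0.849) did not pass. The number was 8 without CTRL replicate 2 and 2 without 3 DPA replicate 3.

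The other genes of the chaperone network were taken from lists chosen by function, with their counts set beside the share of all genes given above. The regulators came first: Hsf1, the factor that binds heat shock elements, rose at 1 DPA from 37.1 ± 3.15 to 59.7 ± 2.76 CPM (mean ± SD, n = 3; log2 fold change 0.69 ± 0.08, adjusted p = 1.82e-05). Hsf2 (0.44) and Hsf4 (0.50) were also called higher and Hsbp1, whose product binds HSF1, lower (-0.24), so that all 4 of this list were called, with a median of 0.47. None of the 4 was called at 3 or 5 DPA, where Hsf1 had log2 fold changes of -0.11 and -0.14; none at 3 DPA and 1 at 5 DPA had an unadjusted p under 0.05, and DESeq2 and limma-voom called none. At 1 DPA, 51.6% of all tested genes were called, beside all 4 genes of this list and 1 of the 10 members. Whether the level of Hsf1 bears on the members was not tested.

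At 1 DPA against CTRL, 29.2% of all tested genes were called higher and 22.4% lower. Partners of HSP70 were also called higher more often than lower. Of 10 other J-domain genes, 8 were higher and none lower (median 0.57), led by Dnajb2 (1.45 ± 0.09), an ubiquitin-binding co-chaperone, which went from 64.9 to 177 CPM on average, Dnajc7 (0.77) and Dnajb6 (0.70). Of 6 other BAG and exchange factors, 3 were higher and 2 lower (median 0.22), with Hspbp1, an exchange factor of HSP70, at 1.38 ± 0.06, Bag2 at 0.82 and Bag6 at 0.47. Of the 7 other HSP70 and HSP110 genes, 2 were higher and 4 lower (median -0.40): Hspa4, an HSP110 like Hsph1, rose from 152 ± 17.9 to 318 ± 26.0 CPM (1.07 ± 0.09), while Hspa13 (-0.76) and Hspa12b (-0.40) fell. Other HSP90 partners counted 7 higher and 2 lower of 12 (median 0.32), with Unc45a, a myosin chaperone, at 1.38 ± 0.06, Chordc1 at 0.80 and the ubiquitin ligase Stub1 at 0.27. Each gene named here with its value had all its 1 DPA libraries above, or below, all CTRL libraries. Of the other called genes of these 4 lists, Dnaja4 and Hspa4l overlapped with CTRL. How many of all genes were set apart like this was not counted.

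In mitochondria, the other chaperones and proteases counted 8 higher and 1 lower of 11 at 1 DPA (median 0.56). Of all tested genes, 29.2% were called higher in this comparison and 22.4% lower. Hspa9, the mitochondrial HSP70, rose from 169 ± 14.2 to 336 ± 30.3 CPM (0.99 ± 0.08, adjusted p = 1.76e-06), its J-domain partner Dnaja3 by 0.64 and the protease Lonp1 by 0.74, while Hspd1 and Hspe1 differed by -0.04 and -0.07 in the same comparison and were not called. The TRiC chaperonin, the cytosolic relative of HSP60, had 5 of 8 subunits higher (median 0.21), among them Cct6a (0.37), Cct4 (0.31) and Cct8 (0.25). When the 50 most abundant genes were left out of the library sizes, 1 TRiC subunit was higher and 1 lower. Of 6 other small heat shock proteins, Hspb8, the partner of BAG3, fell (-0.65) and Hspb6 rose (0.29), and the latter call was lost in 11 of 22 other settings.

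At 3 DPA against CTRL, fewer of these genes were called, and most were higher. Of all tested genes, 12.6% were called at 3 DPA, 10.2% of them all being higher, and 8.54% at 5 DPA. Hspa9 (0.65 ± 0.08, adjusted p = 0.000228), Lonp1 (0.32) and Grpel1 (0.34) were the 3 of 11 mitochondrial genes called, Stip1 (0.54) and Ptges3 (0.38) the 2 of 12 HSP90 partners, Dnajb6 (0.35) and Dnajc5 (0.29) the 2 of 10 J-domain genes, and Cct8 (0.42) and Cct3 (0.23) the 2 of 8 TRiC subunits. Hspa4 (0.56) and Hspbp1 (0.37) were higher and Hspa12a (-0.41) lower, and no small heat shock protein gene was called by edgeR, 1 having an unadjusted p under 0.05. The calls of the mitochondrial, HSP90 and TRiC lists were each reduced to 1 or none in fits of only the groups compared. At 5 DPA, 3 genes over all these lists were called: Cryab, a small heat shock protein and close relative of Hspb1, rose from 9.84 ± 3.10 to 19.3 ± 3.33 CPM (0.97 ± 0.21, adjusted p = 0.0182), and Hspa12a (-0.42) and Fkbp4 (-0.40) fell. The Fkbp4 call was lost in 11 of 22 other settings and that of Hspa12a in 6. The Cryab call was lost without 5 DPA replicate 1, in the fit of only the groups compared and with the macrophage score.

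**Figure D4:**
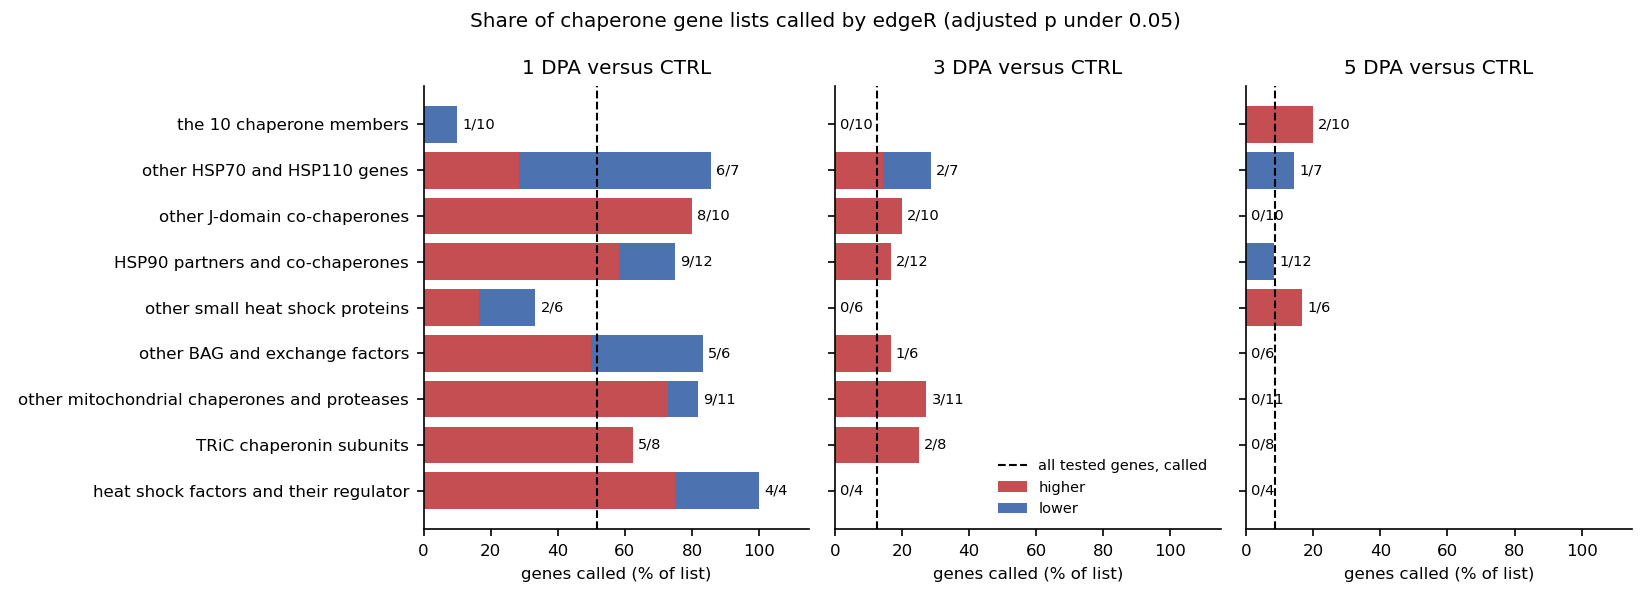
Share of each chaperone list (y axis) called by edgeR at an adjusted p under 0.05 (x axis, percent of the genes tested, with the number called of the number tested) at 1, 3 and 5 DPA against CTRL, higher in red and lower in blue, with the share of all tested genes as a dashed line. At 1 DPA, 1 of the 10 members was called, beside 8 of 10 other J-domain genes and 9 of 11 other mitochondrial genes. Of all tested genes, 51.6% were called at that time.

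By likeness over the 12 libraries (Pearson r of log2 CPM, across 12669 genes, as a description), the genes most like Hsph1 were Avpr1b (r = 0.878), Snrpa (0.872) and Pgam1 (0.863), and those most like Hspd1 were Efnb2 (0.837), Pgam1 (0.837) and Arl5b (0.817). The 12 points share their 4 groups, and CTRL replicate 2 was high for both members.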

How the data were processed

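RNA was measured in 12 islet libraries, grouped by their labels. Per the labels' protocols, RNA was taken with RNeasy Mini columns and a QIAseq stranded mRNA kit made the libraries. Read counts for each gene are whole numbers as deposited, per the file headers. The submitters' processing notes name mm10 as the build; aligner, counter, annotation and use of strand are not stated in the sources used. TPM values deposited by the authors served to compare levels between genes. The sum of Hspa1a and Hspa1b and ratios between members were also described by group on this scale, with no test. A further 24 per-sample columns (other normalized units) were not used.

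Of 48709 genes, 17294 passed edgeR's filterByExpr at a minimum count of 10. After TMM scaling, all 12 libraries were fitted with the robust quasi-likelihood model of edgeR, 1 mean per group. Calls took a Benjamini-Hochberg adjusted p under 0.05 over all tested genes, and the SE came from the F statistic. CPM used TMM library sizes. Tools were edgeR 4.0.16, DESeq2 1.42.0 and limma 3.58.1 under R 4.3.3. The fit was tested on simulated data.

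The members and lists were chosen with earlier results of these data known. Named were all members, per list and comparison with CTRL up to 3 called genes of smallest p, Hsf1, Ins1, Ins2 and Slc2a2, and the 3 genes most like Hsph1 and Hspd1; Hsp90ab1, Fos, Egr1 and Hsbp1 were added after values were seen. Hspa14 was not matched by symbol. Marker scores were mean log2 CPM with a prior count of 2. Near-copies shared 75-base windows with Hspa8 (68.0%), Hsp90aa1 (53.1%), Hspb1 (47.3%), Hspd1 (33.7%) and Hspe1 (23.7%), and none with Hsph1, Dnajb1 or Bag3. Replicate numbers were not shown to pair libraries. Between 3 and 5 DPA, deviations from the group means of same-number libraries correlated at 0.156, 0.187 and 0.326. Libraries of different numbers reached as much elsewhere, such as 0.358 for 5 DPA replicate 2 with CTRL replicate 3. No 2 replicates agreed within sampling noise. The 22 alternatives covered tools, scaling, filter, libraries fitted, replicate block, summed copies, marker scores and each library left out.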

Additional observations from a re-analysis of the deposited data

Results flagged for a closer look

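Each result here is a difference between times after toxin, tested in the same edgeR fit; because both times share CTRL, it is also the difference of their changes from CTRL. From 1 to 3 DPA, Dnajb1 was higher by 1.40 on the log2 scale, Hsph1 by 0.85, Hspa8 by 0.68 and Hspd1 by 0.30. From 3 to 5 DPA, Hspa1b and Hspa1a were each higher by 0.88. From 1 to 5 DPA, Hspb1 was higher by 0.90, Hspa1b by 0.87, Hspa1a by 0.86 and Bag3 by 0.30. In each of these comparisons all 3 libraries of the later time lay above all 3 of the earlier one. The same held for members not called, Hspb1 and Hsp90aa1 from 1 to 3 DPA and Hspa8, Hsph1 and Dnajb1 from 1 to 5 DPA. The share of all genes set apart in this way was not counted. None of the flagged results was called in the fit with a macrophage score. That fit can hardly separate the score from time, since the macrophage sums at 1, 3 and 5 DPA did not overlap. Its SE for Hspb1 from 1 to 5 DPA was 0.448, in place of 0.304.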

How the results depend on the processing

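Members called against CTRL at 1 DPA numbered 1, and 0 with limma-voom, the unfiltered table, the replicate block, only the groups compared, the macrophage score or the acinar score, and 0 to 2 with a library left out. At 3 DPA the 0 became 1 with DESeq2 (Hspd1), and 0 to 5 with a library left out, 5 without CTRL replicate 2. At 5 DPA the 2 became 1 with Hspa1a and Hspa1b summed, by construction, 0 with the macrophage score, and 2 to 3 with a library left out, Dnajb1 being added without CTRL replicate 2. From 1 to 3 DPA the 4 became 0 with the macrophage score and 2 to 5 with a library left out. From 3 to 5 DPA the 2 became 1 with the pair summed, 0 with the macrophage score, and 0 to 3 with a library left out. The replicate block kept 2. From 1 to 5 DPA the 4 became 7 with only the groups compared, 0 with the macrophage score, and 2 to 7 with a library left out. Over the 4 groups the 5 became 3 with the replicate block, and 2 to 8 with a library left out. Among called values, direction turned for Hspb1 with the macrophage score (0.14 ± 0.30 at 1 DPA against CTRL, -0.68 ± 0.45 from 1 to 5 DPA). A further 33 of 47 values that were not called had the other sign in at least 1 setting, such as Dnajb1 at 1 DPA (-0.42, and 0.25 with the macrophage score); of these, Hsp90aa1 came to be called, at 1 DPA, where values with a library left out ran from -0.23 to 0.30, the latter without CTRL replicate 2. The cause of these changes was not tested.

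Over all genes, fits of only the groups compared called 622 genes at 5 DPA against CTRL in place of 1477, the macrophage score 168 and DESeq2 2400. From 3 to 5 DPA, 547 became 1177 with DESeq2 and 340 with the replicate block, and 31 to 1018 with a library left out. Leaving out a library gave 462 to 2137 genes at 5 DPA and 1372 (without 3 DPA replicate 1) to 2801 at 3 DPA, where 2182 were called. From 1 to 5 DPA 9703 became 2805 with the macrophage score. Without the 50 most abundant genes in the library sizes, at 1 DPA the median over all genes moved on the log2 scale from -0.05 to -0.18 and the share of calls that were higher from 56.6% to 43.3%; the share went from 45.3% to 59.5% from 1 to 3 DPA and from 46.9% to 60.7% from 1 to 5 DPA. A p above the threshold with 3 libraries a group does not show that Hspe1 or Hsp90aa1 did not differ.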
